A study of Drosophila melanogaster with 2 samples.

Results

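Of the 3777 peaks in the thresholded set of Rotund-eGFP binding in fly pupae, 3774 lay on the 6 main chromosome arms, and 1062 of these had their summit in an intron at a moderate distance from a transcript start. The rule took summits that lay in a gene body but in no exon, more than 500 bp and at most 5000 bp from the nearest annotated start on either strand, with Ensembl gene models on the dm6 genome that left out transposons and pseudogenes. The rule used positions only and no measured height. These intron peaks made up 28.1% of the peaks on the arms (95% Wilson interval 26.7 to 29.6), while the sequence that meets the rule made up 18.2% of the arms. The same rule took 665 peaks of replicate 1's own set and 575 of replicate 2's. For comparison, 1453 peaks had a summit within 500 bp of a start (here called promoter peaks), 554 lay in introns further than 5000 bp from a start (far intron peaks), 572 lay between genes and 133 in exons.

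Rotund (rn) is a C2H2 zinc finger transcription factor known for patterning the legs, antennae and wings. Introns of flies, above all the first introns of developmental genes, often hold enhancers, the stretches of DNA where such factors bind and from which they regulate a promoter some distance away. Many fly genes also have alternative promoters inside the gene, so that an intron of a long transcript can be the upstream region of a shorter one.

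Chromatin immunoprecipitation with sequencing (ChIP-seq) measured where the fusion protein was bound, with an antibody against GFP, in whole pupae of a transgenic line that expresses Rotund fused to enhanced GFP from an insertion. All samples formed 1 group of 2 biological replicates; the pupal stage was unknown and the sex was not collected. Whole animals mix all tissues, so a peak does not say in which cells the protein was bound, and the control libraries were not analysed here. The authors deposited peak lists and no reads, so the depth of each library is unknown, and the intervals below cover counting error over peaks, which are not independent samples. Values are the authors' signal (the height their peak caller gave), first in the set over both replicates and then in the ranked list of each replicate, and they are not scaled between lists.

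The sequence at the summits was rich in A and T. The summit with 50 bp on each side, for the 8 strongest intron peaks for which a sequence is printed, is shown first, because their base composition is a feature most of the peaks shared. They are from the plus strand of the NCBI RefSeq Release 6 genome (dm6), and capitals mark matches, on either strand, to the 4 listed motifs that were more frequent at summits than in the flank described below (a run of 7 A, TAATTA bound by homeodomains, TATAAA of the TATA box, and TATTTTTA bound by Mef2).
CG11050, 2L:6612654-6612754: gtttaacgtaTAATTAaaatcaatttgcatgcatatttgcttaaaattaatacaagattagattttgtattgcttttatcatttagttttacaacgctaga
CG4496, 2L:7188569-7188669: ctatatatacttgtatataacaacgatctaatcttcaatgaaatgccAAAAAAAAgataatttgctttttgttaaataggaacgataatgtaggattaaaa
lncRNA:let7C, 2L:18456219-18456319: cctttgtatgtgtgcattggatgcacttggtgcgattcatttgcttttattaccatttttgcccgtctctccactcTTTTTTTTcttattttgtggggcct
CG32772, X:4910336-4910436: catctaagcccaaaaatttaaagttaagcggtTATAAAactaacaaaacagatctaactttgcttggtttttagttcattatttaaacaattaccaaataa
ImpL2, 3L:4228329-4228429: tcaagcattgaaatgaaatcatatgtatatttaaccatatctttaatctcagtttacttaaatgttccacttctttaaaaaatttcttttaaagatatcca
CG3726, X:5918849-5918949: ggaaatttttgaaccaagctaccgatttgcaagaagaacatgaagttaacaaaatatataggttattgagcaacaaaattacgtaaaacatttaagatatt
Trl, 3L:14759450-14759550: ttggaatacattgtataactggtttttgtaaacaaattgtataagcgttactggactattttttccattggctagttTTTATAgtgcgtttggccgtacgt
CG9663, 2L:3302331-3302431: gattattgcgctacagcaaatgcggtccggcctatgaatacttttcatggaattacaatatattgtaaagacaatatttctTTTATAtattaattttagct

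A second feature lay on both shoulders of the summit. The 5-base word CACTG, or its reverse complement CAGTG, stood 50 to 125 bp from the summit more often than elsewhere, and in some peaks it was extended to CACTGAGA. The 251 bp around the summit of the 4 strongest intron peaks with that longer word on a shoulder, among those for which a sequence is printed, show where it stands. Capitals mark the 5-base word and its 8-base extension on either strand, and the summit is the middle base.
ImpL2, 3L:4228254-4228504: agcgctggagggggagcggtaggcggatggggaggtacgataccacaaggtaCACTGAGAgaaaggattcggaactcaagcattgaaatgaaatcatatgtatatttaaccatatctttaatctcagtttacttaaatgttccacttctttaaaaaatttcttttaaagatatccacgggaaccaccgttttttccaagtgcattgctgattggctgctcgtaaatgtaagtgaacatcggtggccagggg
Tmhs, 3L:1886133-1886383: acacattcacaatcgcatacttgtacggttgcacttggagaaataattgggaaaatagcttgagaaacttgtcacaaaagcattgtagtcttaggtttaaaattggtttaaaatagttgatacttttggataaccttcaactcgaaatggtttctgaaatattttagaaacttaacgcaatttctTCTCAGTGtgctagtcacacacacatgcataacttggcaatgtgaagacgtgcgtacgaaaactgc
Tet, 3L:2823055-2823305: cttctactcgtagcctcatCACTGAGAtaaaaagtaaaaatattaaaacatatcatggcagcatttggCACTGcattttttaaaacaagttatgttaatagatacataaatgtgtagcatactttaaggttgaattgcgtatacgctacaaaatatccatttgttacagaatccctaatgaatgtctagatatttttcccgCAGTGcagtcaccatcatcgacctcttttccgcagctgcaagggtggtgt
aop, 2L:2163553-2163803: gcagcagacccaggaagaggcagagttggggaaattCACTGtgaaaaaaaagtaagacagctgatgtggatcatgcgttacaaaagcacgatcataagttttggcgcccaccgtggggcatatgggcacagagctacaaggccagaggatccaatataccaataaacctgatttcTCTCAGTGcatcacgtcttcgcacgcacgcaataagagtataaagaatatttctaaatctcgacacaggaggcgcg

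Base composition at the summits was lower in G and C than around them. G+C in the 51 bp at the summit averaged 33.1% ± 10.9 (SD over 1062 peaks). In the 51 bp centred 500 bp from the summit on the side away from the nearest start it averaged 41.3% ± 11.4, and over places spaced through the sequence that meets the rule it was 39.4% ± 10.8. The flank was not confined to introns. At CG11050, where the shortest intron with the summit is 140 bp long, the flank had 70.6% G+C. The paired difference was -8.17 percentage points ± 16.5, and 729 of the 1062 peaks (68.6%) had less G+C at the summit than in the flank. Far intron peaks, at 33.3%, and promoter peaks, at 34.5%, had a similar mean at the summit, so low G+C was not particular to introns near starts. Stronger peaks were lower: from the lowest to the highest of 4 equal groups by signal the mean fell from 36.5% through 33.5% and 32.3% to 30.3%, while the flank stayed between 41.0% and 41.7%. Not every strong peak was A and T rich, since the summit at aop in the sequences above had 62.7% G+C and that at lncRNA:let7C had 43.1%.

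**Figure D1:**
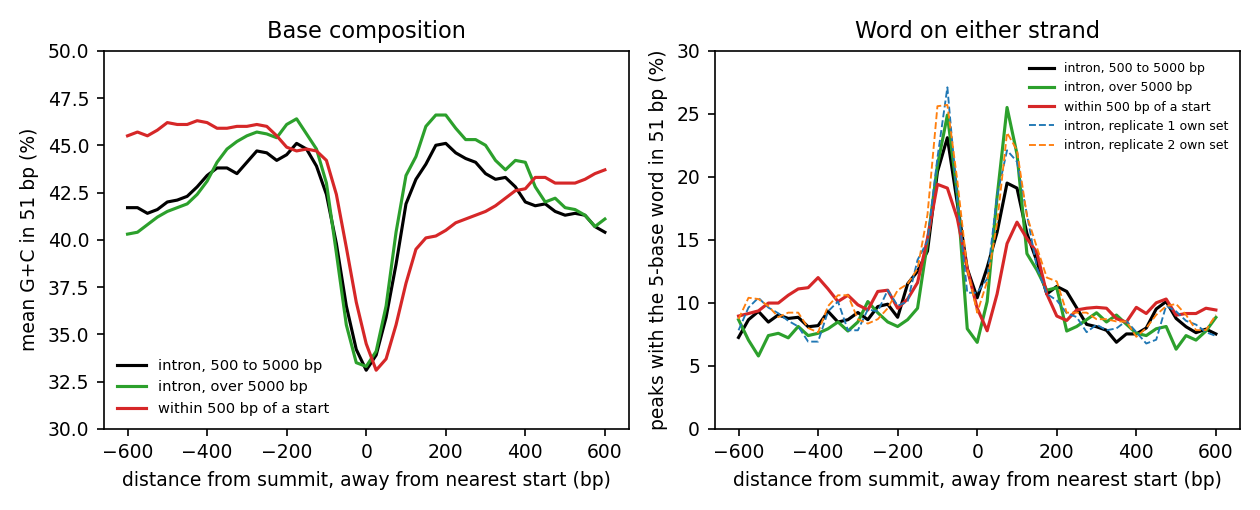
Left, mean G+C in 51 bp windows at each distance from the summit, for intron peaks near starts, far intron peaks and promoter peaks; right, the share of peaks with CACTG on either strand in the same windows, also for the own set of each replicate. Positive distances point away from the nearest start. G+C is lowest at the summit in both intron classes, and the word peaks on each side of it, at 23.1% at -75 bp and 19.5% at 75 bp against 10.4% at the summit.

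The word CACTG was found on at least 1 shoulder of 489 intron peaks (46.0%). Windows of the same shape moved out to 425 to 500 bp from the summit held it at 271 peaks (25.5%), and it stood in 22.0% of places spaced through the same introns. Both shoulders carried it at 125 peaks (11.8%), against 19 (1.79%) further out. In the peaks of each replicate's own set that met the same rule, the share was 51.7% against 24.5% further out for replicate 1 and 53.2% against 24.7% for replicate 2. The share followed the signal, from 34.6% in the lowest of the 4 signal groups to 57.9% in the highest, with 22.6% and 27.1% further out. The word was not confined to these introns: far intron peaks had it at 52.9%, intergenic peaks at 47.9% and promoter peaks at 41.9%. It was chosen after the values were seen, so these shares describe the peaks and carry no test.

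Longer words on the shoulders mostly contained the same core. Of the 10 8-base words with at least 3 G or C that gained most over the windows further out, all but GAGAGAAA held it. CACTGAGA stood on a shoulder of 48 intron peaks against 2 further out, and CACAGTGG on 57 against 13. The peaks with CACTGAGA had a median signal of 95.5, and those without it had 79.0. Replicate 1's own set had 32 such peaks against 2 further out, and replicate 2's own set had 33 against 1. The share was 4.52% in introns near starts, 6.86% in far introns and 6.12% between genes, and 2.06% at promoters. No factor is named for this word here, and a match is a description of sequence only.

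Of 21 motifs listed for fly transcription factors and promoters, 4 were more frequent within 50 bp of the summit than in the flank window, 4 were less frequent and 13 had an interval of the paired difference that held 0. TATAAA, the core of the TATA box, was at 20.6% of summits and 11.7% of flanks, a difference of 8.95 percentage points (95% interval 5.83 to 12.1). A run of 7 A was at 17.1% and 10.8% (difference 6.31, interval 3.42 to 9.20). That difference was 2.64 in a 51 bp window, 10.1 in a window of double width and 3.95 against the flank towards the start. TATTTTTA, a core of Mef2 sites, was at 4.14% and 2.07% (difference 2.07, interval 0.600 to 3.54). TAATTA, a homeodomain core, was at 9.42% and 6.97% (difference 2.45, interval 0.117 to 4.78). All 4 are made of A and T, and promoter peaks held them at 21.8%, 17.8%, 6.47% and 9.57% of summits in the same order. The A run was less frequent than at far intron summits, where it reached 22.0% (difference -4.88, interval -9.11 to -0.852). The less frequent motifs were GCCAT, the core bound by the Polycomb group protein Pho (11.8% against 17.5%), CACACA (6.59% against 11.3%), AGGTCA, the core bound by nuclear receptors (1.32% against 3.20%) and the ETS core CCGGAA (0.565% against 1.88%). CGATA, part of the site of the insulator protein BEAF-32, was at 8.66% of intron summits and at 16.0% of promoter summits. Their flanks held it at 10.9% and 14.4%, and in both classes the interval of the paired difference held 0. Windows of the same length tiled through the eligible introns held 13.8% for TATAAA, 10.8% for the A run, 8.04% for TAATTA and 3.04% for TATTTTTA. Motifs were searched on both strands.

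Among all 2080 6-base words (a word and its reverse complement counted together), 793 were in more summit windows than flank windows and 1248 in fewer. All 36 words without G or C were more frequent at summits, and 1 of the 36 words made only of G and C was. AAAATA led, with 383 summits against 208 flanks. Among words with at least 2 G or C, AAGCAT led with 95 against 41, followed by AATGCT with 107 against 56 and AGTGCA with 113 against 63. ACAGTG had 95 against 49 and CACTGA 81 against 39, and both contain CAGTG or CACTG. These words were picked by their difference, after the values were seen, and carry no test.

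The strongest intron peak lay in CG11050 (FBgn0031836), at 2L:6612580-6612833, with a signal of 868, the fourth highest of the whole set. It was 469 in replicate 1 and 395 in replicate 2, and the summit was 1017 bp downstream of the gene's own start. Adf1, a transcription factor with a MADF DNA-binding domain, held the next at 2R:6662936-6663186 in its first intron (signal 726, replicates 374 and 353). In CG4496 the signal was 667 (314 and 352) at 2L:7188475-7188761, in a first intron, 551 bp upstream of an inner start of the same gene. All 15 strongest intron peaks were in both replicates' own sets, with at least 174 in replicate 1 and 154 in replicate 2, and 12 of them lay in a first intron.

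Among the other strongest peaks, lncRNA:let7C, the precursor of the let-7 cluster microRNAs that time the change to adult tissues, had a signal of 541 (341 in replicate 1 and less in replicate 2) at 552 bp downstream of its start, and 2 weaker peaks in the same gene. ImpL2, an ecdysone-inducible secreted protein that binds insulin-like peptides, had 460 (245 and 215) at 3L:4228287-4228476. Trl, which encodes the GAGA factor, had 436 (227 and 200) at 3L:14759397-14759608. The overlapping genes HmgD and HmgZ, which encode high mobility group proteins that bend DNA, shared a peak of 509 (261 and 247), and the summit was 558 bp upstream of a start of HmgZ. In these genes the replicates were near each other except at lncRNA:let7C, where replicate 1 was the higher.

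Of the remaining strongest peaks, CG32772 had 534 (248 and 263), CG12769 had 518 (268 and 250) and CG3726 had 457 (174 and 279). CG9663 had 425 (236 and 154), and Pak3, a kinase of the PAK family, had 418 (207 and 216) at 4444 bp from its own start, the furthest of the 15. MYPT-75D, a regulatory subunit of myosin phosphatase, had 414 (211 and 212), CG9837 had 408 (207 and 191) and Reph 400 (206 and 191). The signals of the replicates lay in a similar range, and neither was always the higher.

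**Figure D2:**
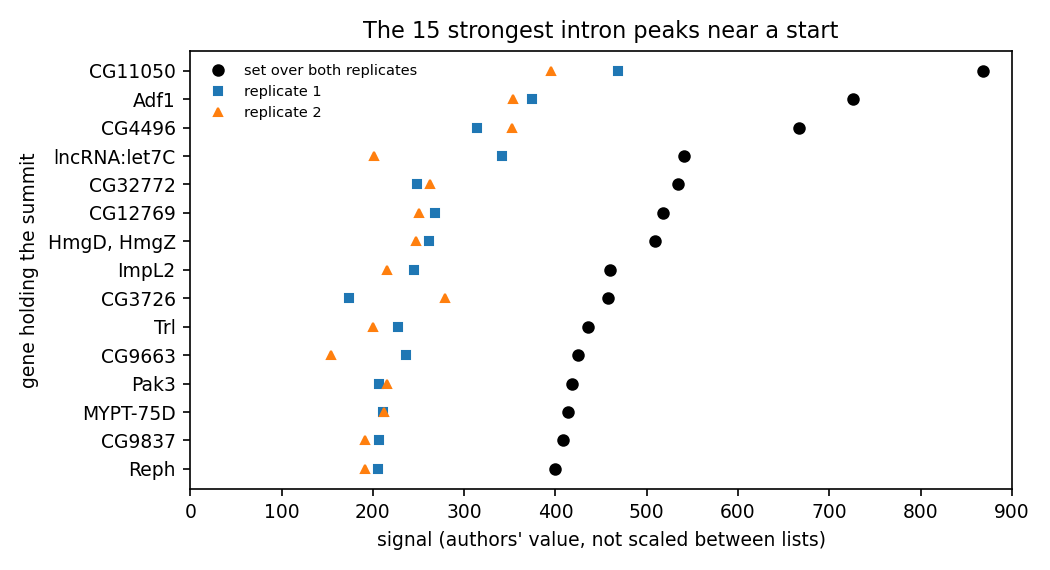
Signal of the 15 strongest intron peaks near a start (x axis, authors' value), by the gene that holds the summit, in the set over both replicates (black) and in the ranked list of replicate 1 (blue squares) and replicate 2 (orange triangles). The signal over both replicates, from 868 at CG11050 to 400 at Reph, is near the sum of the replicate values.

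Across all 1062 intron peaks the median signal was 79.6 (quartiles 60.2 and 116), with a range from 2.39 to 868. Far intron peaks had a median of 76.5 (95% interval 72.7 to 81.8), which overlaps the 76.7 to 82.0 of the introns near starts, and promoter peaks had 85.0 (82.1 to 87.8), which does not. Of the 100 highest peaks of the set, 23 were introns near starts, 4 far introns and 64 promoters. The signal over both replicates was close to the sum of the replicate signals, with a median ratio of 1.000 (quartiles 0.974 and 1.03). In 20 intron peaks the signal was under 20, and 3 of these were covered by a ranked peak in both replicates. The lowest, 2.39, was in crol, where its summit was covered in neither ranked list and its interval overlapped a crol peak of 92.7 (47.6 and 50.1).

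The replicates gave similar values for strong peaks and scattered for weak ones. Both ranked lists covered the summit of 1016 intron peaks, with a median of 43.4 in replicate 1 and 38.1 in replicate 2 and a median ratio of 1.11 (quartiles 0.894 and 1.45). Replicate 1 was higher at 639 of them (62.9%), and 90 (8.86%) were more than 2 times apart. Over these 1016 peaks, which share their libraries and were selected together, Pearson's r was 0.898 and Spearman's rho 0.659. The same values were 0.851 and 0.636 over 538 far intron peaks, and 0.943 and 0.730 over 1380 promoter peaks.

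**Figure D3:**
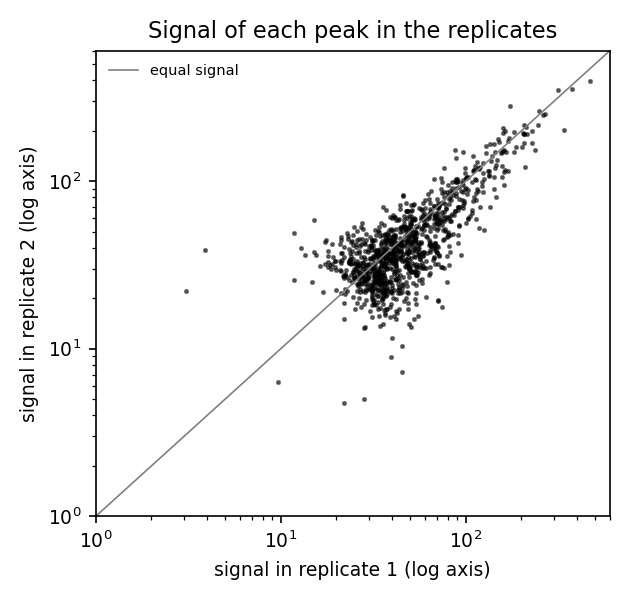
Signal of each of the 1016 intron peaks covered in both ranked lists, in replicate 1 (x) and replicate 2 (y), on log axes; the line marks equal signal. The spread around the line is widest among low values, and 90 peaks are more than 2 times apart.

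A peak counts as recurring when it shares at least 1 bp with a peak of each replicate's own thresholded set. This held for 419 intron peaks, 39.5% (36.6 to 42.4), against 41.5% of all peaks on the arms. A further 221 had a partner in replicate 1 alone and 136 in replicate 2 alone. The remaining 286, 26.9%, had a partner in neither, against 27.2% of all peaks. The share with a partner in both was 1.34 percentage points below that of far intron peaks (226 of 554), with a 95% Newcombe interval of the difference from -6.39 to 3.66. Against promoter peaks (46.5%) the difference was -7.07 (-10.9 to -3.15), and against intergenic peaks (35.5%) it was 3.96 (-0.979 to 8.80). Recurrence went with signal, which is drawn from the same libraries: 4 of 266 peaks in the lowest signal group had both partners, then 21 of 265, 138 of 265 and 256 of 266. The irreproducible discovery rate, or IDR, is the authors' estimate of how poorly peaks recur between rankings of peaks, and lower values mean better recurrence. Whether those rankings came from the biological replicates was not established here. The IDR served as a limit only and is not read as the chance for 1 peak. A value at or under 0.001 was met by 582 intron peaks (54.8%), near the 55.9% of all peaks, and 71.0% of these had both partners.

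Intron peaks were denser near the start. The 500 to 1000 bp bin held 278 peaks, or 63.4 per Mb of intron that meets the rule (95% Poisson interval 56.1 to 71.3). The 4500 to 5000 bp bin held 51, or 30.8 per Mb (23.0 to 40.5). Between them the density was 44.2, 47.6, 37.2, 32.9, 37.1, 39.8 and 34.6 per Mb in order of distance, and neighbouring bins beyond 1000 bp overlapped in their intervals. The own set of replicate 1 fell from 42.6 to 20.6 per Mb between the first and last bin and that of replicate 2 from 36.9 to 18.7. Taken over all bins, the density was 43.5 per Mb (40.9 to 46.2), with 27.2 in replicate 1's own set and 23.5 in replicate 2's, against 81.0 within 500 bp of starts, 19.5 in far introns and 15.6 between genes. The median signal was 85.1 (76.5 to 93.8) in the first bin and 81.3 (69.7 to 98.2) in the last, with overlapping intervals.

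**Figure D4:**
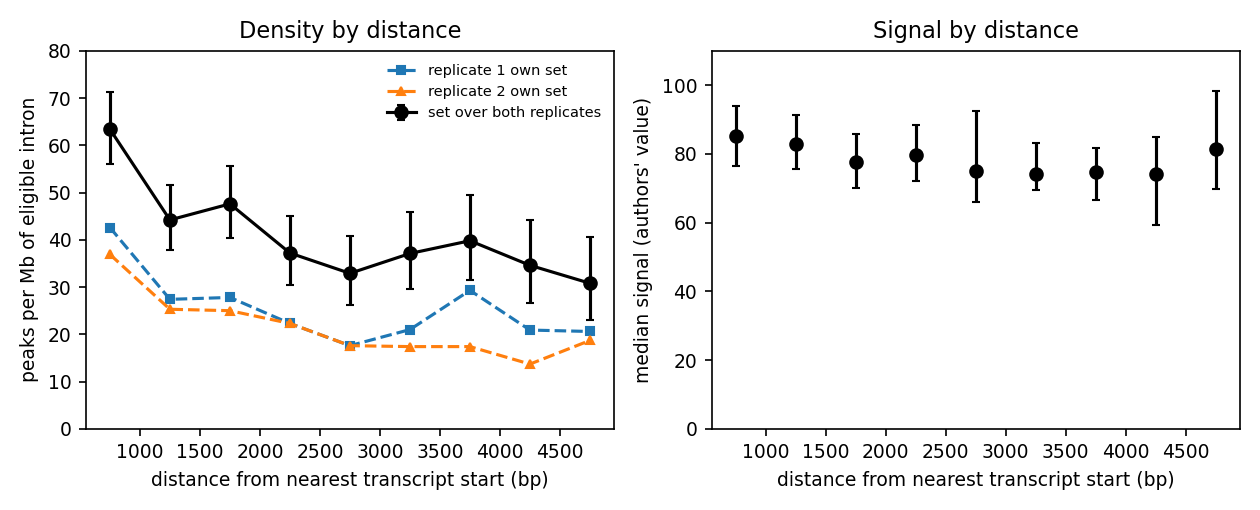
Left, intron peaks per Mb of intron that meets the rule in bins of 500 bp from the nearest start, for the set over both replicates (black, 95% Poisson interval) and for each replicate's own set (dashed); right, the median signal per bin with its 95% interval. Density is highest at 63.4 per Mb in the first bin, while the medians stay between 74.0 and 85.1.

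Single peaks on either side of each limit differed. The intron peak nearest the lower limit was in pAbp, at 501 bp, with a signal of 89.6 (39.6 and 50.3), and the nearest intron summit outside it was in CG31612, at 499 bp, with 184 (103 and 81.0). At the upper limit shep, at 5000 bp, had 243 (143 and 120), and ush, at 5004 bp, had 61.9 (29.4 and 30.9). The 70 intron peaks up to 600 bp had a median signal of 86.9, and 54.3% of them had a partner in both replicates' own sets. The 61 intron summits at 400 to 500 bp had a median of 79.2 and 34.4% with both partners. The 51 at 4500 to 5000 bp had 81.3 and 45.1%, and the 50 in the 500 bp beyond had 77.7 and 36.0%. The members next to each limit thus had the higher median and the higher share, and these differences carry no test.

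First introns held most of the peaks. The summit lay in the first intron of at least 1 transcript for 799 peaks, 75.2% (72.6 to 77.7), while first introns made up 57.5% of the bases that meet the rule. For far intron peaks it was 49.6%, with 31.3% of the bases. The nearest start belonged to a gene that contains the summit for 814 peaks, 76.6% (74.0 to 79.1), against 65.9% of the bases. In each replicate's own set the shares were 74.9% and 74.6% for first introns and 78.3% and 78.1% for an own start. Downstream of the nearest start were 681 peaks, 64.1% (61.2 to 67.0), close to the 65.5% of bases. Upstream of an inner start of a gene that contains them were 230 peaks, 21.7% (19.3 to 24.2), against 14.4% of bases. The summits at CG4496, CG12769, HmgZ, ImpL2, Trl, MYPT-75D, CG9837 and Reph were of this kind.

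By arm, X held 236 peaks (49.0 per Mb of eligible intron, interval 43.0 to 55.7), 2R held 198 (45.3), 3R held 242 (43.6), 3L held 209 (42.0) and 2L held 177 (40.1, interval 34.4 to 46.5). Chromosome 4 held 0 in 0.301 Mb, for which the upper bound of the 95% Poisson interval is 12.2 per Mb. These counts leave out the peaks missing from the set that are described in the closing section. Of those that met the rule, 13 lay on 3R, 9 on 2L, 1 each on X and 2R and 0 on 3L. The order of 2R, 3R, 3L and 2L by density is therefore not settled. Annotated transposable elements held the summit of 1 peak, 0.0942% (0.0166 to 0.531), although such elements made up 4.24% of the eligible bases. It lay in a roo element in grh, with a signal of 131. In the ranked list without a threshold the share was 113 of 22946 summits (0.492%). Few such summits were not particular to introns near starts. Transposable elements held 0 of 554 far intron summits, with 9.54% of the bases, and 2 of 572 intergenic summits, with 10.8%. At promoters it was 0 of 1453, with 0.766% of the bases. How uniquely reads map to these elements was not tested.

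Intron peaks were spread over many genes. Of 9105 protein-coding genes with at least 1 eligible base, 690 held an intron peak (7.58%), against 448 with peaks at an IDR at or under 0.001, 499 with replicate 1's own set and 440 with replicate 2's. Of the 690, 470 held 1, 127 held 2, 51 held 3 and 42 held 4 or more. Genes with a peak had a median of 7235 eligible bp and the others 381, and among the 1177 genes with more than 6000 eligible bp, 392 (33.3%) held a peak. Within 1000 bp of another intron peak lay 192 peaks (18.1%). The body of more than 1 gene covered 75 peaks, and 25 lay in genes of non-coding RNA alone, so counts over genes share peaks. Each summit counts as a peak, and some summits share an interval. In CG32772 the interval X:4910219-4910692 counts with a summit of 534 and again with one of 178.

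The 8 protein-coding genes with the most intron peaks held 7 to 11 each. shn, a zinc finger protein of the Dpp pathway, held 11 in 34.5 kb of eligible intron, with signals from 46.9 to 219. Tlk, the Tousled-like kinase, held 9 from 25.2 to 389, and sbb, a transcriptional corepressor, held 9 from 3.95 to 309. psq, a BTB-domain factor, held 8 (60.2 to 184), and Svil, an actin-binding protein, held 8 in 69.5 kb, of which the weakest had 18.0. CHES-1-like, a forkhead factor, held 7 (36.7 to 299), CG1677 held 7 (53.6 to 191) and Ptp61F, a tyrosine phosphatase, held 7 (48.4 to 147). At Tlk and sbb 1 peak stood far above the others of the gene, while at psq and Svil the values were closer together. The strongest at Tlk was 228 in replicate 1 and 169 in replicate 2, that at shn 99.6 and 120, and that at Svil 67.9 and 42.5, the last with no partner in replicate 2's own set.

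A promoter peak at the same gene accompanied 379 intron peaks, 35.7% (32.9 to 38.6), and 30.5% of far intron peaks, a difference of 5.18 percentage points (0.320 to 9.89). The 35.7% depends on what counts as a promoter: it was 23.4% within 250 bp of a start and 58.4% within 1000 bp, where intron peaks that near their own start count themselves. By gene, 213 of the 690 genes with an intron peak had one (30.9%), against 1115 of the 8415 without (13.3%). Since genes with a peak were longer, the shares were also taken among genes of like length. Among genes with 3000 to 6000 eligible bp they were 35.7% against 12.3% (difference 23.5, interval 16.2 to 31.2), and among longer genes 32.4% against 15.4% (interval of the difference 11.8 to 22.3). Among genes with 1000 to 3000 eligible bp the difference was 6.59 with an interval from -0.737 to 15.8. Among the 5652 genes with up to 1000 eligible bp, of which 27 held an intron peak, it was 11.1% against 12.6% (difference -1.51, interval -8.82 to 15.5). Of the 15 strongest intron peaks, 5 were at a gene with a promoter peak, among them CG11050 and Trl, while Adf1 and ImpL2 had none.

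Genes of the EGFR, Dpp and Hippo pathways had the highest densities of intron peaks among the 22 lists. By genes the shares were 61.1%, 40.0% and 29.4%, and some other lists had higher shares than Dpp and Hippo. Of all protein-coding genes 7.58% held a peak, and of those with more than 6000 eligible bp 33.3%. EGFR signalling genes held 22 peaks in 11 of 18 genes with eligible intron, or 17.4 per 100 kb against 4.35 over all eligible intron. The receptor Egfr had the strongest at 324 (210 and 122), its feedback inhibitor sty had 268 (160 and 113), the ETS repressor aop 236 (111 and 117), and the adaptor drk 196 (76.4 and 119). The median over the 22 was 75.7, near that of all intron peaks. In the Dpp pathway 6 of 15 genes held 22 peaks (17.2 per 100 kb), of which 11 were in shn. There the receptor tkv had 124 (50.4 and 71.9), the transducer Mad 109 (48.3 and 66.2) and the inhibitory Smad gene Dad 104 (53.2 and 49.3). In the Hippo pathway 5 of 17 genes held 12 peaks (20.2 per 100 kb): ex, upstream in the pathway, had 188 (91.5 and 91.8), the polarity gene crb 162 (78.7 and 86.7), the cell death inhibitor Diap1 155 (78.5 and 68.1) and the kinase wts 104, with nearly the same value in both replicates. Lists were chosen with earlier results of these data known, and they are described by counts with no test.

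Ecdysone response genes held 22 peaks in 10 of 17 genes, or 7.58 per 100 kb. After ImpL2, the peak shared by the nuclear receptor gene Hr3 and genes that overlap it had 165 (80.3 and 82.4), the kinase gene Eip63E had 157 (76.4 and 80.8) and the nuclear receptor gene Hr4 141 (63.6 and 78.1). The receptor gene EcR held 2, of 108 and 65.0. Genes of BTB zinc finger and related factors held 18 in 8 of 14 (9.69 per 100 kb). Beside Trl and psq, ken had 172 (88.4 and 81.1), and br, the ecdysone-induced Broad factor, had 93.8 (50.5 and 44.1) in an intron shared with Mur2B. Most of these lists thus had more than the 7.58% of all protein-coding genes, as genes with long introns did.

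In the Notch pathway 5 of 15 genes held 8 peaks, or 5.96 per 100 kb against 4.35 over all eligible intron. That is 33.3% of its genes, as among all genes with more than 6000 eligible bp. neur, a ubiquitin ligase for Notch ligands, had 370 (200.7 and 160.6), the coactivator mam 298 (155 and 146), the inhibitor numb 85.8 (49.2 and 38.2) and the glycosyltransferase fng 64.6 (23.4 and 33.0). In the Wingless and Hedgehog pathways 10 of 20 genes held 16 peaks (8.58 per 100 kb). The glypican dlp had 150 (84.4 and 63.7), the Hedgehog receptor ptc 137 (82.1 and 58.0), the kinase sgg 134 (67.2 and 62.8) and the Wingless inhibitor nkd 134 (67.6 and 71.5). The neur and mam peaks were thus higher than any in the Wingless and Hedgehog list, with both replicates above.

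Adhesion and cytoskeleton genes held 18 peaks in 12 of 34 genes (6.97 per 100 kb, against 4.35 over all eligible intron). The actin linker Moe led at 279 (147 and 134), before the cofilin gene tsr at 218 (123 and 93.5). Src64B had 136 (77.1 and 60.8) and msn, a kinase, 120 (59.6 and 54.8). Insulin and TOR genes held 8 in 4 of 17 (8.48 per 100 kb), 1 of them the sgg peak of 134 named above. Here sima, the hypoxia factor, had 196 (119 and 69.9), foxo 125 (79.8 and 47.1) and REPTOR 55.8 (21.5 and 37.3). Clock genes held 7 in 3 of 11 (8.38 per 100 kb), and the same sgg peak counts again here. Beside it vri had 124 (47.5 and 74.4) and Pdp1 110 (76.1 and 30.4). The weakest of the 3 peaks at Pdp1 had a signal of 2.40. Axon guidance genes held 6 in 4 of 26, or 2.19 per 100 kb: Sema1a had 195 (96.3 and 94.2), trio 175 (84.5 and 86.5), NetB 89.5 (47.9 and 39.5) and fra 72.6 (45.7 and 26.9).

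Peaks in patterning genes of the legs and antennae were mostly weak. In the leg and antenna list 4 of 25 genes held 10 (7.47 per 100 kb), with a median signal of 53.4 against 79.6 over all intron peaks. bowl, a zinc finger gene of leg segmentation, had 103 (63.6 and 41.4) as its highest of 4, and hth, a homeobox gene of proximal and antennal identity, had 100.8 (64.2 and 30.7). rn itself held 3, at 3R:7284652-7284947, 3R:7288272-7288567 and 3R:7283533-7283828, with signals of 50.3, 46.0 and 45.9. Replicate 1 had 36.6, 32.9 and 31.1 there and replicate 2 had 15.8, 22.7 and 23.0. Replicate 1 was higher at each, as it was at 62.9% of the intron peaks covered in both ranked lists. The first rn peak had a partner in replicate 1's own set and the other 2 had none. The rn paralog sqz had 1 of 53.0 (29.2 and 22.5), with no partner in either replicate's own set. In the wing list (1.49 per 100 kb) 2 of 21 genes (9.52%, near the 7.58% of all protein-coding genes) held 1 each, emc at 86.3 (40.2 and 40.1) in an intron it shares with hng3, and rho at 48.4 (21.9 and 27.2) in an intron of Ptp61F as well. Among 8 Hox genes with eligible intron, Abd-B held 1 of 47.0 (12.9 and 39.8), with no partner in replicate 1's own set. Planar polarity genes held 3 in 3 of 12, or 2.92 per 100 kb, below the 4.35 over all eligible intron. Of these fz had 73.1 (30.8 and 40.8), stan 68.2 (41.1 and 22.4) and mwh 60.8 (29.8 and 32.0). The fz peak had no partner in replicate 1's own set, and the mwh peak had none in either. The stan and rho peaks and the highest hth peak had none in replicate 2's own set. bab1 and bab2, distal leg genes, held none.

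**Figure D5:**
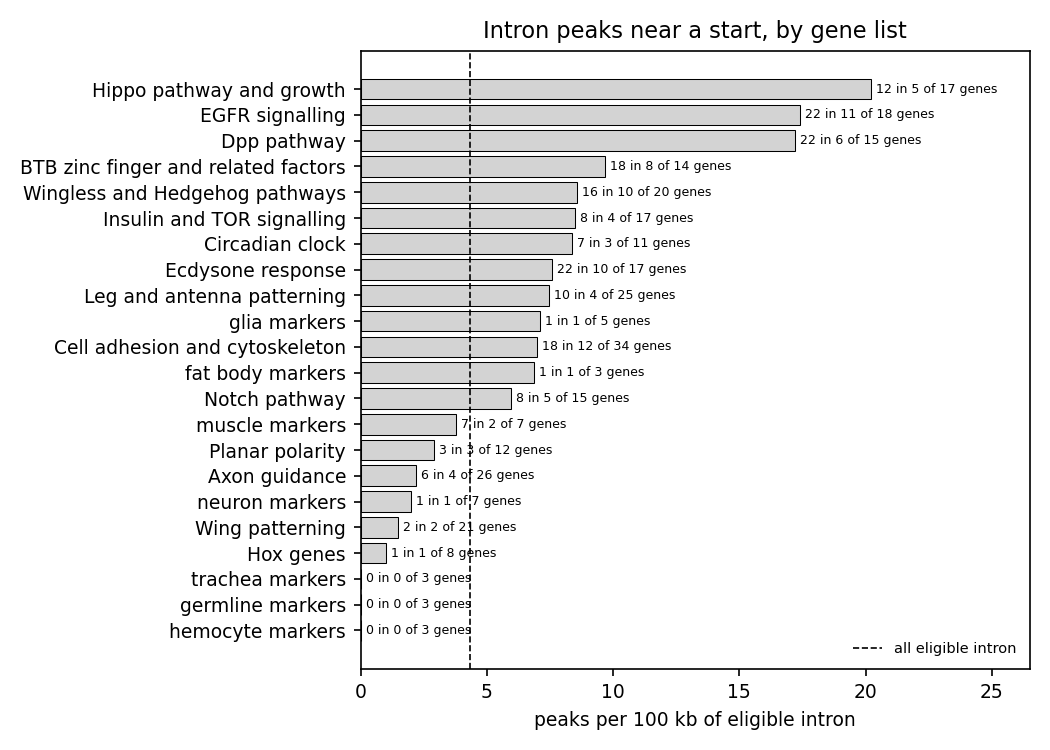
Intron peaks per 100 kb of eligible intron (x axis) for each gene list, with the number of peaks and of genes that hold them; the dashed line is the 4.35 per 100 kb of all eligible intron. The Hippo, EGFR and Dpp lists are above 17 per 100 kb, and the wing, Hox and neuron lists and the 3 lists without a peak are below 2.

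A minority of the listed cell type markers held a peak, as among all protein-coding genes. Of 7 muscle markers 2 did: kirre, a founder cell adhesion protein, had 5 with a highest signal of 223 (122 and 99.0), in an intron shared with CG32795, and Mef2 had 2 with a highest of 83.8 (49.9 and 30.9). Of 5 glia markers loco alone held one, of 155 (91.0 and 67.1). Of 7 neuron markers the RNA-binding gene Rbp9 alone did, with 124 (70.9 and 59.9), or 1.98 per 100 kb of the list's eligible intron. Of 3 fat body markers with eligible intron Lpin alone did, with 69.2 (21.1 and 44.8). None of the 3 genes with eligible intron in each of the trachea, hemocyte and germline lists held a peak. In the muscle, glia, neuron and fat body lists the share of genes was above the 7.58% of all protein-coding genes. It ran from 14.3% (neuron) to 33.3% (fat body), with 1 or 2 genes behind each share. The glia (7.11 per 100 kb) and fat body (6.85) densities were above the 4.35 over all eligible intron. Those of muscle (3.78) and neuron markers were below it.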

How the data were processed

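Rotund-eGFP ChIP-seq of whole pupae was deposited as peak lists on dm6: a ranked and a thresholded list for each of 2 replicates, and lists made over both. The sources used here do not give the aligner, the peak caller or their versions. The signal of a peak is the height given by the authors' caller, as deposited, and is not scaled between lists. The score, as deposited, is the IDR rescaled by the authors to at most 1000, and the thresholded lists start at 830, an IDR of 0.01. The −log10 values of the IDR in the ranked list over both replicates were deposited by the authors and were used for the limit of 0.001. A second ranked list of the pooled data was not used. No deposited list gives read counts, so depth and its precision are unknown.

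Summits were classed with Ensembl release 115 gene models, and sequences were read from the NCBI RefSeq Release 6 genome. A partner shares at least 1 bp. Shares have 95% Wilson intervals, densities Poisson intervals, differences of shares Newcombe intervals and summit minus flank differences paired intervals, which treat peaks as independent. Intervals came from scipy 1.17.1 under Python 3.11.15, tables from pandas 2.3.3 with numpy 2.4.6, and figures from matplotlib 3.10.9. The motif count and the interval of a difference of shares were tested on simulated data. Distances were checked against a brute force search, and the class code only against its own mask of eligible sequence. The other intervals were not tested in this way. There is 1 group, so conditions were not compared and no test was run. The members and lists were chosen with earlier results of these data known. Genes named are those holding the 15 strongest peaks, the 8 with the most peaks, rn, sqz, bab1 and bab2, up to 4 of each of 22 lists by their strongest peak, and those nearest each limit. Genes beyond this rule (Tmhs, Tet, EcR, crol, grh and those of the missing peaks in the closing section) were named after their values were seen. Alternatives changed the peak set, the distance limits, the gene models, the windows and the partner rule.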

Additional observations from a re-analysis of the deposited data

Results flagged for a closer look

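The thresholded set over both replicates lacked 82 peaks on the arms that the matching ranked list holds at or above the threshold score. Of these, 24 met the rule for introns near starts, and they are in none of the counts above. They were noted because a signal stands in a list the counts do not use. Their median signal was 108, and 10 were above the upper quartile of the 1062 peaks. The highest, in ush, reached 917 (466 in replicate 1 and 477 in replicate 2) at 1426 bp from a start, above the 868 of CG11050. ush encodes a Friend of GATA cofactor. Lk6, a kinase of translation initiation, had 734 (362 and 367), Alh had 276 (136 and 143), and trx, a Trithorax group methyltransferase, had 271 (137 and 130). By arm, 13 lay on 3R and 9 on 2L. Why the set lacks them was not tested.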

How the results depend on the processing

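Of 108 alternative values for 13 results, 66 stayed within 1.5 times (counts and densities), within 1 SD between the replicates' own sets (G+C) or within the 95% interval (the others), and 42 moved. For the G+C difference from the flank that SD comes from 2 close values, -9.18 and -9.09. This made the limit very narrow, and every alternative of that result counts as moved, even -8.36 beside the main -8.17. The difference from far intron peaks in the share with both partners, whose interval holds 0, ran from -5.83 to 1.65 and changed sign, to 1.65, with an upper limit of 3000 bp. Restricting to an IDR at or under 0.001 gave 582 peaks, 23.8 per Mb, 71.0% with both partners, a median signal of 109, G+C of 31.8% at summits and -9.46 points from the flank, a promoter peak at 27.0% and 448 genes. A lower limit of 1000 bp gave a share of 20.8%, a G+C difference of -8.48, first introns at 72.1% and an own start at 74.0%. An upper limit of 3000 bp gave 20.8%, -7.98, 79.2% and 79.7%, and one of 10000 bp gave 36.1%, -8.36, 71.6% and 73.2%. Protein-coding gene models alone gave 26.4%, -8.41 and an own start at 85.6%, and the conservative set gave a G+C difference of -7.98. Windows 50 bp to each side gave G+C of 34.1% and -7.43, and a flank towards the start gave -8.83. A promoter width of 250 bp gave 23.4% with a promoter peak and one of 1000 bp 58.4%, where intron peaks under 1000 bp from their own start count themselves. The A run difference was 2.64 points with a 51 bp window and 10.1 with the window of double width, and 3.95 against the flank towards the start. Leaving out each replicate, which leaves the other's own set, gave 575 to 665 peaks, 23.5 to 27.2 per Mb, G+C of 31.9% to 32.5%, differences of -9.18 to -9.09, promoter peaks at 25.6% to 28.0% and 440 to 499 genes. The cause of these moves was not tested, beyond the smaller sets. No paired analysis was possible because all samples form 1 group.

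With 2 replicates and no reads, the spread between animals is hardly measured and a missing peak is not shown to be unbound. Whole pupae mix tissues, and the control libraries were not analysed here.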
